A study of Caenorhabditis elegans with 10 samples.

Results

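Of the genes that encode the machinery of translation initiation, translation elongation and tRNA charging in *Caenorhabditis elegans*, 16 are in the authors' deposited table of RNAs enriched with the light chain DLC-1. They were chosen by name: genes whose names start with eif-, iff-, ife-, eef- or etf-, the aminoacyl-tRNA synthetase genes (one letter, ars and a number), and the genes *ifg-1*, *inf-1*, *gcn-1*, *gcn-2*, *pek-1*, *clu-1*, *abce-1*, *abcf-1*, *abcf-2* and *abcf-3*. The reference annotation holds 82 genes that meet the same rule, 81 of them protein coding, so 66 are not listed under the rule's names. Genes of the rule were matched by the name in the table, so a gene listed only under a sequence name counts as not listed. The whole table has 2732 genes. Its RNA came from whole-worm extracts of synchronized young adults, all carrying 3xFLAG::DLC-1, and 5 immunoprecipitates made with an antibody against FLAG were set against 5 inputs that had no antibody step. DLC-1 belongs to the LC8 family of dynein light chains, which also occur in many complexes without dynein. Immunoprecipitates from worms without the tag were not analysed here. Every gene in the table is higher in the immunoprecipitates, because the table was selected that way (fold above 2 and adjusted p under 0.01 in the authors' comparison). A gene that is not listed may be unchanged, lower, less than 2-fold higher or not expressed. It may also be more than 2-fold higher and miss the limit on adjusted p.

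Translation begins when initiation factors bring the small ribosomal subunit and the initiator tRNA to the capped end of an mRNA. The factor eIF4F binds the cap, eIF3 holds the small subunit, and eIF2 delivers the initiator tRNA as a complex with GTP. The exchange factor eIF2B recharges eIF2 with GTP, and kinases that phosphorylate the alpha subunit of eIF2 turn eIF2 into an inhibitor of eIF2B, which slows initiation across the cell. Elongation factors then deliver charged tRNAs and move the ribosome along, and each aminoacyl-tRNA synthetase joins an amino acid to its tRNA. In the worm germline, control of translation carries much of gene regulation, since many mRNAs are made in advance and held silent.

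The eIF2 kinase gene *gcn-2*, its activator *gcn-1*, *clu-1* and the eIF4G gene *ifg-1* had the highest folds of the listed translation genes. All of them were named one by one, with earlier results of these data known, so their place at the top may reflect that choice. Median log2 folds were 2.49 for the 5 listed genes named one by one and 1.20 for the 11 in families named by prefix. The listed elongation factor and synthetase genes lay close to the 2-fold limit, as did the initiation factor genes *eif-2Bdelta*, *eif-2alpha* and *eif-3.C*. In the authors' deposited table the 16 log2 fold changes of immunoprecipitate over input ran from 1.04 to 3.42, with a median of 1.26. The median was 2.13 over all 2732 listed genes and 1.81 over the 2116 listed protein-coding genes. The table holds 13.4% of the 20328 genes the authors tested and 10.6% of the 19983 protein-coding genes of the reference, against 19.8% of the 81 protein-coding translation genes. The share of 19.8% includes the genes named one by one, and no test was made on it. Of the 16 genes, 6 lay above the median of listed protein-coding genes, and 9 lay at a log2 fold change of 1.31 or less. Input libraries began with oligo-dT priming and the libraries of immunoprecipitated RNA had no enrichment, so the antibody step and the library preparation cannot be told apart in any of these values. The table holds no values per library, and depth is unknown. The labels do not say whether the 5 numbered replicates were separate cultures, so the errors may measure technical spread alone. With whole worms, a tissue with more cells and a tissue with more RNA per cell cannot be told apart as the source of an RNA.

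Listing alone does not show a fold above 2, so each gene was tested against 2-fold with its deposited estimate and standard error (SE). This one-sided test, with Benjamini-Hochberg adjustment over all 20328 genes at 0.01, passed 1350 genes, which is 6.64% of the genes tested and 49.4% of the table. Of the 16 translation genes, 5 passed: *gcn-2*, *clu-1*, *ifg-1*, *gcn-1* and *ears-1*. The same contrast selected the table, so this count describes how far the listed genes lie above the limit and is not independent evidence of enrichment. At 4-fold or more stood *gcn-2*, *clu-1*, *ifg-1* and *gcn-1*, or 4 of 16, against 53.6% of the table. All 16 genes code for protein, and the table also holds RNAs that do not, so its shares are over a wider set. The median log2 fold change of listed protein-coding genes was 1.81, which is below 4-fold.

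**Figure D1:**
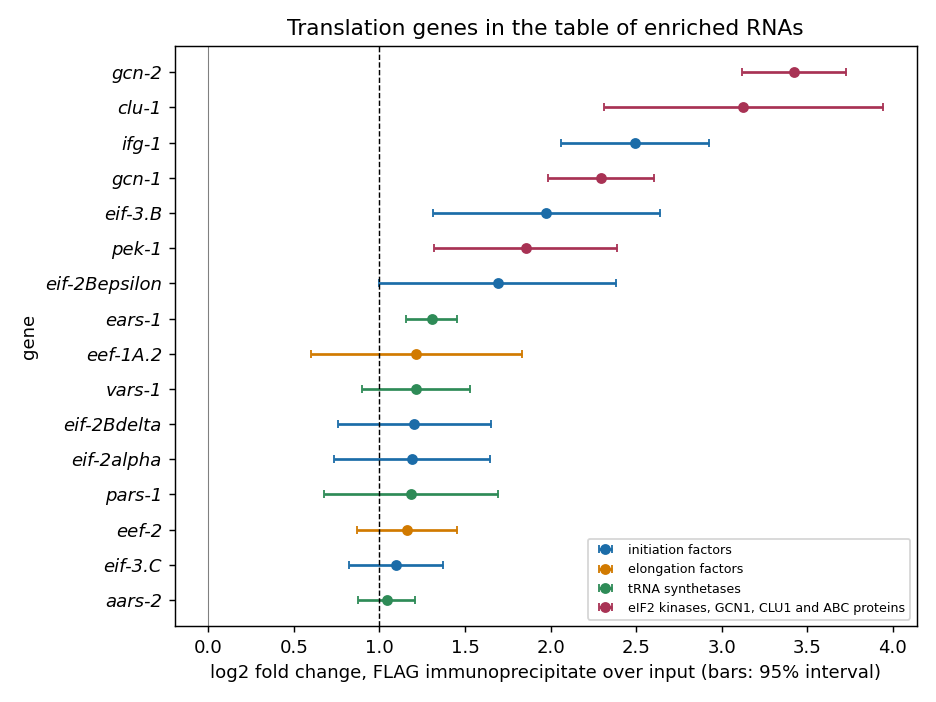
Log2 fold change of FLAG immunoprecipitate over input for the 16 listed translation genes, from the authors' deposited table, with 95% intervals (estimate ± 1.96 SE) as bars and the 2-fold limit of the table as a dashed line. The 4 genes at the top, *gcn-2*, *clu-1*, *ifg-1* and *gcn-1*, lie between 2.29 and 3.42, while 9 genes lie between 1.04 and 1.31.

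The gene with the highest fold of the 16 acts on eIF2. *gcn-2* encodes the eIF2 kinase that is activated by uncharged tRNA when amino acids run short. The authors' deposited table puts *gcn-2* at a log2 fold change of 3.42 ± 0.16 (± SE), which is 10.7-fold with a 95% interval from 8.69 to 13.3. The mean over the libraries that the authors' deposited table gives was 1469 normalized counts, and the adjusted p against 2-fold in the normal test was 7.75e-53. The gene lies on chromosome II from 13084164 to 13091501 (WBcel235). *gcn-1* encodes the large ribosome-bound protein that GCN2 needs for its activation. *gcn-1* had a log2 fold change in the authors' deposited table of 2.29 ± 0.16 with a mean of 2018 normalized counts, or 4.91-fold with a 95% interval from 3.95 to 6.09. *pek-1* encodes the other eIF2 kinase of the rule, a protein of the endoplasmic reticulum membrane activated by misfolded proteins. The authors' deposited table gives *pek-1* a lower mean, 255 normalized counts, and a log2 fold change of 1.86 ± 0.27, with a 95% interval from 1.32 to 2.39 on the log2 scale. It missed the test against 2-fold (Benjamini-Hochberg adjusted p = 0.0126 in the normal test), and passed it with adjustment over the table's genes alone (0.00169). The difference in log2 fold change between *gcn-2* and *clu-1*, the next gene in order, was 0.30 with an SE of 0.44 if the estimates are taken as independent.

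The target of these kinases and part of its exchange factor were listed with smaller folds. *eif-2alpha* encodes the subunit of eIF2 that is phosphorylated, and the authors' deposited table gives it 1.19 ± 0.23 (log2 fold change ± SE) at a mean of 658 normalized counts. The genes for the beta and gamma subunits, *eif-2beta* and *eif-2gamma*, are not listed. Of the 5 eIF2B genes 2 are listed. *eif-2Bepsilon*, which encodes the catalytic subunit of the exchange factor, stood at 1.69 ± 0.35 in the authors' deposited table, with a mean of 252 normalized counts. *eif-2Bdelta*, for a subunit of the regulatory part that senses phosphorylated eIF2, stood at 1.20 ± 0.23 in the authors' deposited table, with a mean of 417 normalized counts. The genes *eif-2Balpha*, *eif-2Bbeta* and *eif-2Bgamma* are not listed. Counting the kinases, GCN1, eIF2 and eIF2B together, 6 of 11 genes are listed, against 10.6% of all protein-coding genes. Of the 11, *gcn-1* and *gcn-2* passed the test against 2-fold, as did 6.64% of the genes tested. This grouping was made with earlier results of the data known, and no test was made on it.

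Among the cap-binding factors, the scaffold gene is listed and those of its partners are not. *ifg-1* encodes eIF4G, which joins the cap-binding protein to the helicase eIF4A and to eIF3. For *ifg-1* the authors' deposited table gives 2.49 ± 0.22 (log2 fold change ± SE), or 5.63-fold with a 95% interval from 4.17 to 7.60. Only *eef-2* has a higher mean among the 16 than *ifg-1*, at 3411 normalized counts (the authors' deposited table), and its adjusted p against 2-fold in the normal test was 3.20e-10. None of the 5 *ife* genes, which encode the cap-binding protein eIF4E and include germline forms, is listed, nor is *inf-1*, the gene for eIF4A. With *ifg-1*, 1 of the 7 eIF4F genes is listed, or 14.3%, against 10.6% of all protein-coding genes. No difference between scaffold and partners is read from counts this small. The spans of *ifg-1* and its neighbour *dab-1* overlap by 11 bp, and *dab-1* was the only listed gene that overlaps any of the 16. The authors' deposited table gives *dab-1* a log2 fold change of 1.01 ± 0.13.

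Of the 11 genes named eif-3, 2 are listed, or 18.2%, near the 19.8% of all protein-coding translation genes. They are *eif-3.B* and *eif-3.C*, which encode parts of the core on which the complex is assembled. *eif-3.B* stood in the authors' deposited table at 1.98 ± 0.34 (log2 fold change ± SE), or 3.93-fold with a 95% interval from 2.48 to 6.23, at a mean of 1152 normalized counts. It missed the test against 2-fold (Benjamini-Hochberg adjusted p = 0.0272 in the normal test), and passed it with adjustment over the table's genes alone (0.00365). *eif-3.C* had the higher mean, 1940 normalized counts, and the smaller log2 fold change, 1.10 ± 0.14 (the authors' deposited table). The largest subunit, eIF3a, is encoded by *egl-45*, a name outside the rule, and the authors' deposited table gives it 2.46 ± 0.23 at a mean of 2345 normalized counts. The genes for subunits d to l, *eif-3.D*, *eif-3.E*, *eif-3.F*, *eif-3.G*, *eif-3.H*, *eif-3.I*, *eif-3.J*, *eif-3.K* and *eif-3.L*, are not listed, and neither is *cif-1*, for subunit m. In all, 6 of the 34 genes grouped by name as initiation factors are listed, or 17.6%, against 10.6% of all protein-coding genes. Also unlisted are *eif-1* and *eif-1.A*, whose products guide the choice of the start codon, *eif-6*, which keeps ribosomal subunits apart, and the eIF5A genes *iff-1* and *iff-2*.

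*clu-1* had a high fold and the largest SE of the 16 genes. It is the worm homologue of CLUH and Clueless, proteins that in human and fly bind mRNAs of mitochondrial proteins, and its yeast counterpart was found together with eIF3. In the authors' deposited table *clu-1* stood at 3.13 ± 0.42 (log2 fold change ± SE), which is 8.73-fold with a 95% interval from 4.96 to 15.4, at a mean of 2041 normalized counts. The gene passed the test against 2-fold (Benjamini-Hochberg adjusted p = 4.73e-06 in the normal test). The ATPase genes *abce-1*, whose product splits ribosomes after termination, and *abcf-1*, *abcf-2* and *abcf-3*, from a family of ribosome-associated proteins, are not listed.

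**Figure D2:**
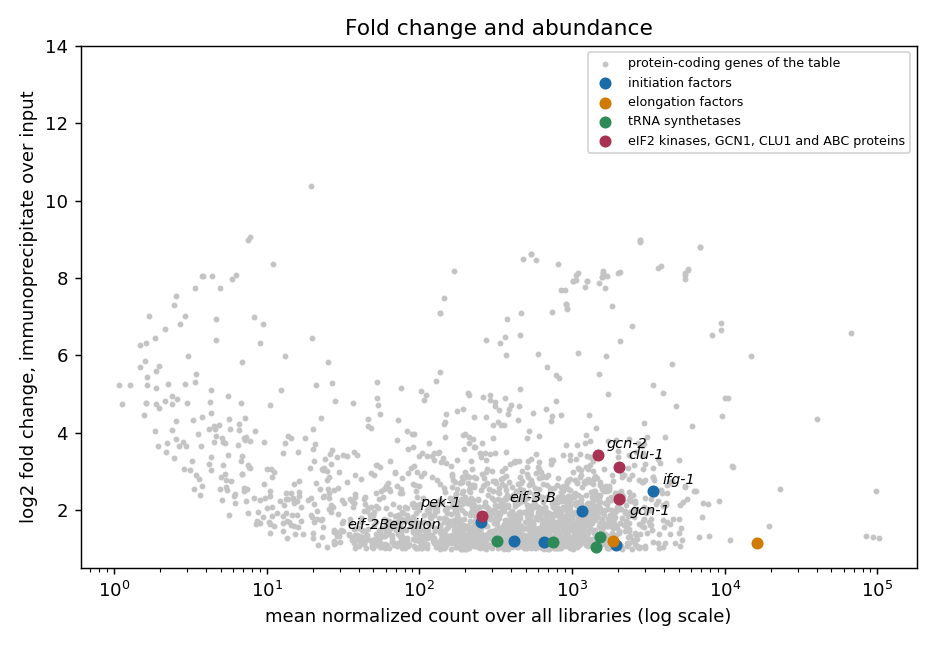
Log2 fold change of immunoprecipitate over input against the mean normalized count over all libraries (log scale) for the listed protein-coding genes (grey) and the 16 translation genes (coloured by family), from the authors' deposited table. The translation genes at 4-fold or more have means from 1469 for *gcn-2* to 3411 for *ifg-1*. Next below *eif-3.B* in fold, *pek-1* and *eif-2Bepsilon* have the lowest means of the 16, at 255 and 252. *eef-2* lies far to the right at 16270 with a low fold.

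Of the 6 elongation factor genes 2 are listed (33.3%), both near the limit of the table. The share of all protein-coding genes is 10.6%, and with 6 genes no difference is read from this count. *eef-2* encodes the GTPase that moves the ribosome by a codon, and in the authors' deposited table its mean of 16270 normalized counts ranks 9 of 2732. The authors' deposited table gives *eef-2* a log2 fold change of 1.16 ± 0.15, or 2.24-fold with a 95% interval from 1.83 to 2.74. *eef-1A.2* encodes a form of the factor that delivers charged tRNAs, and the authors' deposited table gives it 1.22 ± 0.31 at a mean of 1845 normalized counts. Its 95% interval ran from 1.52-fold to 3.56-fold. *eef-1A.1*, a second gene for a nearly identical protein, is not listed, and how the authors' counting divided reads between these copies is not given in the sources used here, so the single value is uncertain. The genes *eef-1B.1*, *eef-1B.2* and *eef-1G*, for the exchange factor of eEF1A, are not listed. The rule's etf- names matched no gene of the table or the reference.

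The listed aminoacyl-tRNA synthetase genes had low folds, and *ears-1* and *aars-2* had the smallest SEs of the 16 genes. Of 33 protein-coding synthetase genes 4 are listed, or 12.1%, close to the 10.6% of all protein-coding genes. The listed genes charge the tRNAs for glutamate, valine, proline and alanine. *ears-1*, for glutamyl-tRNA synthetase, has a log2 fold change of 1.31 ± 0.076 (± SE, the authors' deposited table), or 2.47-fold with a 95% interval from 2.23 to 2.74. It was the only synthetase under the rule that passed the test against 2-fold (Benjamini-Hochberg adjusted p = 0.000619 in the normal test), at a mean of 1519 normalized counts. With Bonferroni adjustment in its place *ears-1* did not pass (adjusted p = 0.619 in the normal test). The valyl-tRNA synthetase gene *vars-1* stood in the authors' deposited table at 1.21 ± 0.16 with a mean of 324 normalized counts. *pars-1*, for prolyl-tRNA synthetase, stood at 1.18 ± 0.26 and a mean of 752 in the authors' deposited table. *aars-2*, for an alanyl-tRNA synthetase, had the lowest value of the 16 genes in the authors' deposited table, 1.04 ± 0.085 at a mean of 1427, just inside the 2-fold limit. Its 95% interval, from 1.83-fold to 2.31-fold, includes 2-fold.

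The listed synthetase genes were spread over both structural classes. The synthetases form a pair of unrelated classes by the fold of their active site. Of the class I genes 2 of 16 (12.5%) are listed and of the class II genes 2 of 17 (11.8%), against 10.6% of all protein-coding genes. In humans a set of synthetases is bound in one large complex, and glutamyl- and prolyl-tRNA synthetase are a single protein there. Of the 9 worm genes that correspond to synthetases of the human complex, 2 are listed, *ears-1* and *pars-1*, and the other 7 (*iars-1*, *lars-1*, *mars-1*, *qars-1*, *rars-1*, *kars-1* and *dars-1*) are not. Of the 24 other synthetase genes, 2 are listed, and no difference is read from counts this small. Outside the rule, *glp-4* also encodes a valyl-tRNA synthetase and is known for a mutant that lacks a germline. Its log2 fold change in the authors' deposited table was 1.51 ± 0.097 with a mean of 1200 normalized counts, and it passed the test against 2-fold (Benjamini-Hochberg adjusted p = 1.84e-06 in the normal test).

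When the 16 genes are set in order of their folds, no gene can be separated from its neighbour. In all 15 neighbouring pairs the difference was under 1.96 times its SE, with the estimates taken as independent although they share libraries. The largest step was 0.63 with an SE of 0.47, between *clu-1* and *ifg-1*. From *ears-1* down to *aars-2*, 9 genes differed by steps of at most 0.091.

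**Figure D3:**
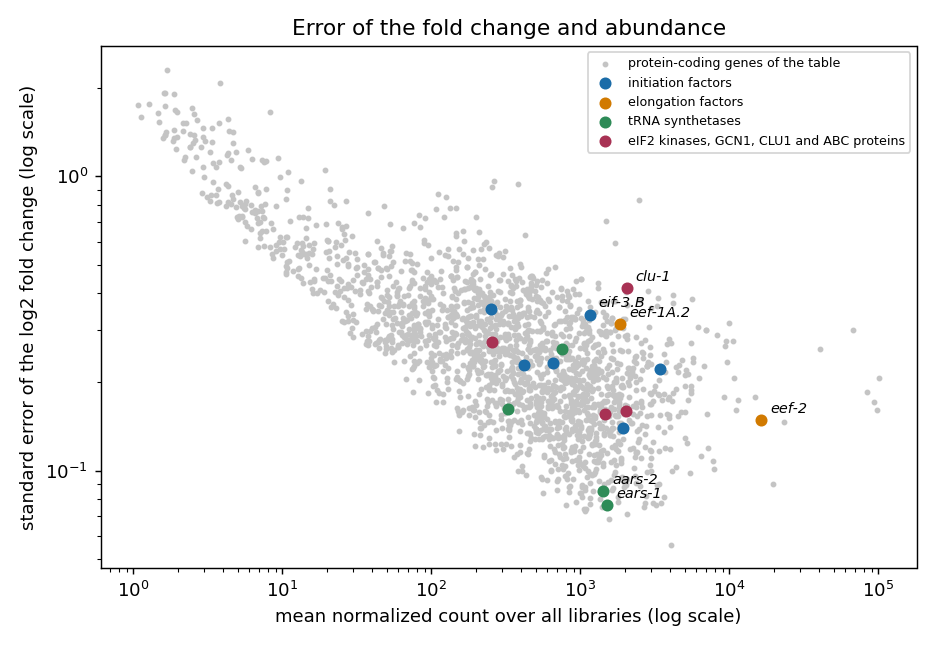
Standard error of the log2 fold change (log scale) against the mean normalized count (log scale) for listed protein-coding genes (grey) and the 16 translation genes (coloured), from the authors' deposited table. *clu-1*, *eif-3.B* and *eef-1A.2* lie near the top of the cloud at their abundance, and *ears-1* and *aars-2* at its bottom edge.

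*clu-1*, *eif-3.B* and *eef-1A.2* had large errors for their abundance, and *ears-1* and *aars-2* small ones. For each gene the SE was set beside the median SE of the 200 listed protein-coding genes closest to it in mean. The SE of *clu-1* was 2.42 times that median and higher than 98.5% of those genes. For *eif-3.B* the ratio was 1.95 and for *eef-1A.2* it was 1.85, and these were the only ratios above 1.5. At the other end stood *ears-1*, with a ratio of 0.452 and an SE above 1.0% of the genes of like mean, and *aars-2*, with a ratio of 0.499. Across replicates the fold of *ears-1* was thus estimated more tightly than that of most listed genes as abundant, and the fold of *clu-1* less tightly. Which libraries widened the error of *clu-1* could not be seen, since the table gives no values per library.

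The 16 genes were abundant for the table. Their median mean was 1448 normalized counts, against 375 for listed protein-coding genes, and 13 of 16 lay above the latter. None had a mean under 100. A mean of normalized counts also grows with transcript length, so it does not order the genes by number of molecules.

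**Figure D4:**
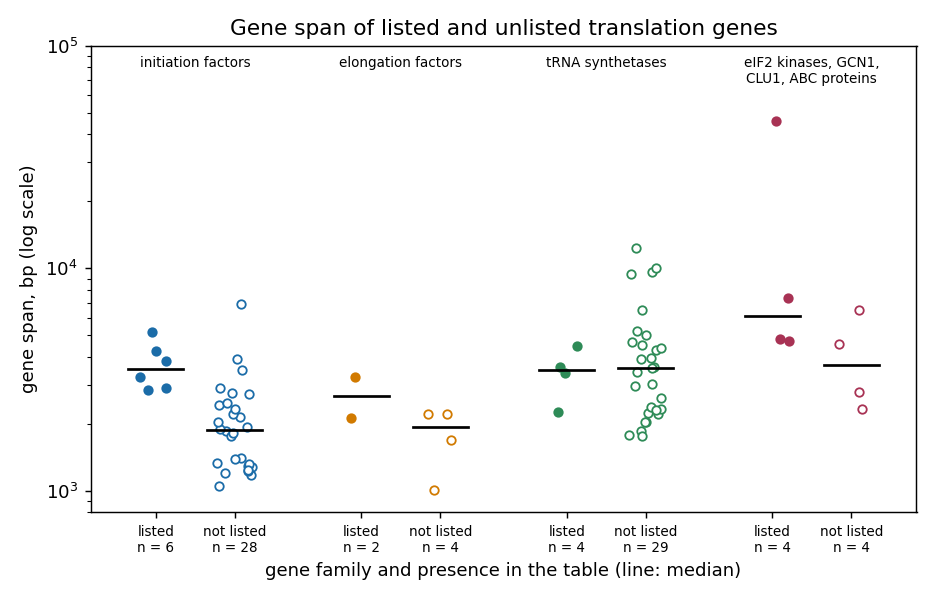
Gene span with introns (bp, log scale) of the 81 protein-coding translation genes, split by family and by presence in the table; filled points are listed, open points are not listed, and lines are medians. Listed initiation factor genes have a median span of 3532 bp against 1872 bp for unlisted ones, while for synthetases the medians are 3507 and 3547 bp.

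Listed initiation factor genes were longer at the median than unlisted ones, with overlap, and listed synthetase genes were not. The reference gives the span of a gene with its introns and no transcript length. The 6 listed initiation factor genes had a median span of 3532 bp, and the 28 unlisted ones 1872 bp. Within eIF2, eIF2B and eIF4F the listed genes were those with the longest spans: *eif-2alpha* (4246 bp), *eif-2Bdelta* and *eif-2Bepsilon* (3826 and 2907 bp), and *ifg-1* (5175 bp). Within eIF3, *egl-45* had the longest span, but *eif-3.C* and *eif-3.B* ranked 4 and 6 of 13. Among the elongation factor genes *eef-2* had the longest span, but *eef-1A.2* (2116 bp) ranked 4 of 6. The longest gene under an initiation factor name of the rule, *eif-4A3* (6884 bp), is not listed under that name. A listing of *eif-4A3* under a sequence name was not checked. The kinases, GCN1 and CLU1 had a median of 6084 bp, against 3661 bp for the unlisted ABC proteins. Synthetase genes of both kinds were alike, at 3507 bp for the 4 listed and 3547 bp for the 29 unlisted.

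All protein-coding genes of the reference show how listing goes with span. When these genes were divided by span into 4 bins of equal size, 30.8% of the bin with the longest spans (3586 bp or more) were listed, and so were 33.3% of the 27 translation genes in it. In the bin from 2006 to 3585 bp the shares were 7.11% of all genes and 21.2% of the 33 translation genes. From 1206 to 2005 bp 0 of 17 translation genes were listed, against 1.88% of all genes, and in the shortest bin 0 of 4, against 2.62%. The part of span in the share of translation genes listed was not tested. Among the 16 genes, span and log2 fold change had a Spearman rho of 0.59, where the 2116 listed protein-coding genes gave -0.020. For mean normalized count and log2 fold change rho was 0.13 among the 16 genes and -0.086 among the listed protein-coding genes. These are descriptions across genes measured in the same libraries.

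The listed genes lie on chromosomes I (5 of 23 genes of the rule), II (4 of 18), III (3 of 18), V (2 of 9) and X (2 of 4), and 0 of the 10 on IV are listed. Of all protein-coding genes 14.4% are listed on I, 9.90% on II, 13.8% on III, 10.3% on IV, 6.07% on V and 13.0% on X, and with so few genes per chromosome no difference is read from these counts. Reads of overlapping genes may be counted together, since the strand setting is not given in the sources used here. Apart from *ifg-1*, *gcn-2* overlaps an unlisted protein-coding gene by 79 bp and *eif-2Bdelta* another by 131 bp. *gcn-1*, with a span of 45964 bp, contains or overlaps 4 genes that do not code for protein, none of them listed.

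Other genes of the pathway were taken from a list of 16 names. Of these 16 genes 9 are listed, against 10.6% of all protein-coding genes. Their median span was 5706 bp, in the longest span bin, where 30.8% of all protein-coding genes are listed. The list includes genes chosen with earlier results known, and no test was made on it. The listed genes with the highest means were *ifet-1*, *egl-45*, *let-363*, *daf-15* and *glp-4*. *ifet-1* encodes a protein that binds eIF4E and represses translation in the germline, and the authors' deposited table gives it 2.29 ± 0.38 at a mean of 5632 normalized counts. *let-363* encodes the TOR kinase and *daf-15* its partner Raptor, which stimulate translation when nutrients are plentiful. The authors' deposited table has *let-363* at 2.77 ± 0.18 and *daf-15* at 2.40 ± 0.15 (log2 fold change ± SE). Both termination factor genes, *erfa-1* and *erfa-3*, are listed too, as are *rict-1* and the tRNA exportin gene *xpo-3*. Of these, *rict-1* and *xpo-3* passed the test against 2-fold, and *erfa-1* and *erfa-3* did not. The 7 unlisted genes were *cif-1*, *iffb-1*, *drr-2*, C37C3.2, *efk-1*, *rsks-1* and *mxt-1*. They encode, in turn, eIF3m, eIF5B, eIF4H, eIF5, the kinase of eEF2, S6 kinase and Mextli. Of the 78 genes for proteins of the cytosolic ribosome itself, whose spans have a median of 748 bp, 0 are listed, where 2.62% of all protein-coding genes in the shortest span bin are.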

How the data were processed

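RNA was sequenced from 5 FLAG immunoprecipitates and 5 inputs, placed in groups by sample title. DESeq2 1.12.3, STAR 2.5.2b-0, Bowtie2 2.3.0 and Trim Galore stand in the submitters' processing notes with no roles, beside the builds ce11 and WBcel235. The file is the authors' comparison: per the file headers it holds a mean signal (normalized count), a log2 fold change with its standard error, a test score, a p-value and an adjusted p-value for each gene. Whether folds were shrunk is not given in the sources used here. All 2732 deposited scores equal fold over error, and 2725 p-values equal the upper normal tail (relative tolerance 1e-06; 7 are listed at 0). Adjusted p-values imply 20328 tested genes. Names matched the WBcel235 gene table for 2660 genes. The test against 2-fold used the upper normal tail of log2 fold minus 1 over its error, and was tested on simulated data. Every gene of the rule in the table was named; other pathway genes were named in the text by count, with values for the 5 of highest mean. Members, lists and alternatives were chosen with earlier results of these data known. Python 3.11.15 and SciPy 1.17.1 were used.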

Additional observations from a re-analysis of the deposited data

How the results depend on the processing

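All 16 listed genes had a mean of at least 100 and an adjusted p at most 0.001, so neither limit moved the family counts. A fold of at least 4 left 4 genes of 16, 1 initiation factor gene of 6, 0 elongation factor genes of 2 and 0 synthetase genes of 4. Adding 4 listed factors and synthetases under other names, an alternative chosen after seeing the data, gave 20. The count above 2-fold was 5. It was 7 with adjustment over the table's genes alone, when *pek-1* (0.00169) and *eif-3.B* (0.00365) passed, and 4 under Bonferroni, when *ears-1* did not (0.619). With a mean of at least 100 it stayed at 5. The median log2 fold change of 1.26 became 1.48 as a weighted mean and 1.20 over the families named by prefix. Leaving out genes with near-identical proteins was not run, since no protein sequences were used here. No paired analysis was possible because the table holds no values per library. For the same reason no replicate could be left out, and depth is unknown.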

Other observations

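Translation in mitochondria runs on its own ribosome, whose proteins are encoded in the nucleus. Of 71 genes for mitochondrial ribosomal proteins 2 are listed, or 2.82%, against 10.6% of all protein-coding genes. In the span bin that holds the median of these 71 genes (at most 1205 bp), 2.62% of all protein-coding genes are listed. In the authors' deposited table *mrpl-45* stood at 4.62 ± 0.42 (log2 fold change ± SE) with a mean of 194 normalized counts, and *mrps-31* at 4.22 ± 0.64 with a mean of 146. The highest value among the 16 translation genes of the rule was that of *gcn-2*, at 3.42. The log2 fold change of *mrpl-45* was 1.20 above it with an SE of 0.44, and that of *mrps-31* 0.80 above it with an SE of 0.66, which is under 1.96 times the SE (estimates taken as independent). The spans of *mrpl-45* and *mrps-31* are 5620 and 3139 bp, and the median of the 71 genes is 1124 bp. Both listed genes thus lie outside the shortest span bin, in bins where 30.8% and 7.11% of all protein-coding genes are listed. They were singled out after their values were seen.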
